A study of Mus musculus with 5 samples.

Results

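The MYC and MAX network was followed through 5 cell populations of mouse bone marrow by the 10 genes Myc, Mycn, Mycl, Max, Mxd1, Mxd3, Mxd4, Mxi1, Mnt and Mlx. The members are named genes of the family, chosen by symbol with earlier results of these data known, and all 10 were found among the 19938 genes that the array's annotation names. Each member has 1 probe set that carries its symbol alone. The samples were the monocyte-dendritic cell progenitor (MDP), the common dendritic cell progenitor (CDP), the common monocyte progenitor (cMoP), the Ly6C+ TremL4- classical monocyte and the Ly6C- TremL4+ nonclassical monocyte, each measured on 1 expression array. All 5 came from untreated wild-type C57Bl/6 marrow and were sorted as lineage-negative, CD115+ cells. MDP were further gated as CD117+ CD135+, CDP as CD117int CD135+ and cMoP as CD117+ CD135-. The sources used here do not give the age, sex and number of the mice, or whether marrow was pooled. With 1 array per population no difference has a replicate check, so no test was run, and precision is limited by the number of arrays.

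MYC is a transcription factor of the basic helix-loop-helix zipper kind that binds DNA only as a pair with MAX, at E-box sites, and raises the transcription of genes for ribosome assembly, metabolism and growth. MYCN and MYCL are its close relatives. The MXD proteins, MXI1 and MNT also pair with MAX at E-boxes but recruit the SIN3 and histone deacetylase corepressor, so they act against MYC, while MLX pairs with MNT, with some MXD proteins and with the glucose-sensing activators MLXIP and MLXIPL. In blood formation MYC is a gene of dividing progenitors, and MXD1 is known as a gene induced when myeloid cells differentiate.

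The E-box that MAX pairs bind best, CACGTG, lies within the promoters of some of the network's own genes. RefSeq promoter sequences (build GRCm38.p6, 250 bases before to 50 after a gene's start) were matched by symbol for 9 members, all but Myc, and 4 of these 9 (44.4%) held CACGTG. The motif reads the same on both strands and was the single motif searched. By gene, it occurred for 8.09% of all genes in the table and for 11.9% of the named genes with signal in these cells. By promoter, it occurred in 4 of the members' 11 promoters (36.4%) and in 7.15% of all 32851. The 4 windows of 30 bases below are shown because they are the E-boxes of the network itself. Each is printed 5′ to 3′ on its gene's strand with the motif in capitals, and a match is a description of the sequence, not a bound site. They lie at chr12:76962234-76962263 on the minus strand for Max, chr11:74830789-74830818 on the plus strand for Mnt, chr11:101087238-101087267 on the plus strand for Mlx and chr5:34187912-34187941 on the minus strand for Mxd4.
Max: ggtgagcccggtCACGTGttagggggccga
Mnt: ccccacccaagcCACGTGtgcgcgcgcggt
Mlx: ggtgggttggatCACGTGactgagcctcgc
Mxd4: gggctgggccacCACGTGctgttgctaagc
In Max the motif begins 3 bases before the annotated start, in Mlx 40 bases before it. None of these 4 genes differed by 1 log2 unit between any compared populations, as the values below show.

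All values are log2 signals as deposited, so a difference of 1 unit is 2-fold, if the base of the logarithm, which is read from the values and not stated, is right. A gene counted as higher or as lower had arrays that differed by 1 unit or more, the brighter of which reached a floor of 6.27, the median of all named genes' values. Where the lower value was under the floor, the fold is a bound, reckoned from the floor instead. Signals of different genes come from different probes and are not compared with each other. The table has exact ties between arrays in 16564 of its 35556 probe sets (46.6%), and in 7 of the 10 members. The origin of the ties is not known, and a difference of 0 below is a tie and not a measured equality. Array medians over all probe sets were between 6.02 and 6.16. The sort genes largely followed their gates where measured: Kit, which encodes CD117, was 3.87-fold lower in CDP than in MDP, 2.32-fold higher in cMoP than in CDP and at least 8.60-fold lower in classical monocytes than in cMoP. In cMoP against MDP, which share the CD117+ gate, Kit differed by -0.74 log2 units, which is under 1 unit. Flt3, which encodes CD135, was 20.4-fold lower in cMoP than in MDP and 20.2-fold lower than in CDP, and Treml4 was at least 45.6-fold higher in nonclassical than in classical monocytes. Csf1r, which encodes CD115, was at 10.03 or above on every array and 2.47-fold higher in nonclassical than in classical monocytes. Ly6c1 and Ly6c2 were not analysed here. Among markers of other marrow cells, 0 of 6 measured T and NK cell genes on 3 arrays and 1 on the other 2 reached the floor, and of 5 erythroid genes 0 or 1 did. Of the 7 B cell genes Cd79b and Vpreb1 reached it on each array, with Cd79b between 8.41 and 9.50, and Cd79a, Ms4a1, Pax5, Ebf1 and Blnk did not on any. Between 0 and 2 of 4 megakaryocyte genes, and 2 or 3 of 8 genes of basophils, mast cells and eosinophils, reached it.

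Myc was the member that varied most. Its log2 signal was 12.21 in MDP, 10.95 in CDP, 11.46 in cMoP, 8.66 in classical monocytes and 5.61 in nonclassical monocytes. The 3 progenitor arrays were high, the classical monocyte array was in between, and the nonclassical monocyte array was under the floor. Between nonclassical monocytes and MDP the difference was -6.60. Since the nonclassical value is under the floor, it holds as a bound, at least 61.7-fold lower. With every value under the floor taken at the floor, the range of Myc was 5.95 log2 units, and 11 of the 19938 named genes had a wider one. In samples of sorted cells, fewer cells that express a gene and less RNA per cell cannot be told apart.

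**Figure D1:**
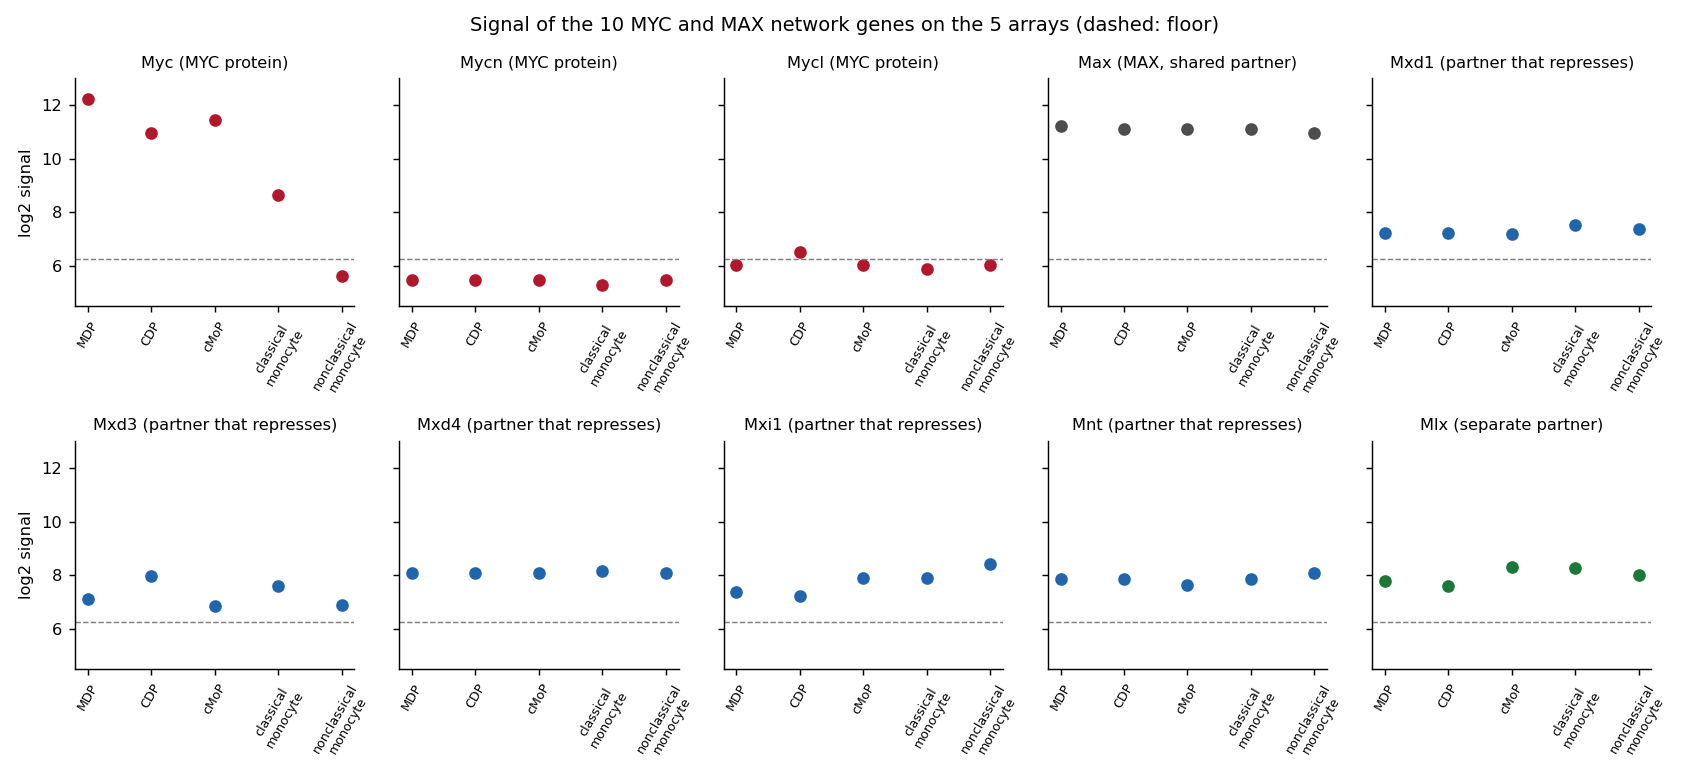
Log2 signal (vertical axis) of each of the 10 genes on the 5 arrays (horizontal axis, 1 point per array, no replicates), with the floor of 6.27 dashed and colours for the kind of protein. Myc drops to 5.61 in nonclassical monocytes, against 12.21 in MDP, while Max stays between 10.95 and 11.22.

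Along the path to dendritic cells, Myc was 2.41-fold lower in CDP than in MDP, with log2 signals of 10.95 in CDP and 12.21 in MDP. It was the 1 member counted as lower of the 9 whose higher value reached the floor, against a background of 1.06% of the 10416 named genes at or above it. No member was counted as higher, against 1.15%. Along the path to monocytes, Myc was at 11.46 in cMoP, against 12.21 in MDP, a difference of -0.76 that did not reach the threshold. In that comparison 0 of 8 members were counted as higher and 0 as lower, where 1.44% and 1.4% of the 10235 named genes were. Between the committed progenitors, cMoP exceeded CDP in Myc by 0.51 log2 units, also within the threshold. CDP thus had the lowest Myc signal of the 3 progenitor arrays.

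The largest differences in Myc came at and after the step to monocytes. Classical monocytes had 6.95-fold less Myc signal than cMoP (8.66 against 11.46, difference -2.80). Of 8 members past the floor, Myc was again the 1 counted as lower, where 4.4% of 10305 named genes were, and 0 were counted as higher, where 7.01% were. Nonclassical monocytes had at least 5.25-fold less Myc signal than classical monocytes (5.61 against 8.66, difference -3.05). Of 8 members, 1 was counted as lower, against 9.82% of 10503 named genes, and 0 as higher, against 3.55%. Over all arrays, Myc was the 1 of 9 members whose monocyte values both lay at least 1 log2 unit under the lowest progenitor value, with a gap of -2.29. That pattern held for 0.787% of the 11058 named genes that reached the floor on any array, and the reverse pattern, found in no member, for 2.38%. The comparisons share arrays, so their values are not independent of each other.

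The other MYC proteins had dim signal. Mycn, the relative best known from nervous tissue and also active in blood stem cells, was at 5.50 in MDP, CDP, cMoP and nonclassical monocytes, a tie of 4 arrays, and at 5.31 in classical monocytes. It was under the floor on all 5 arrays. Mycl, the relative known from dendritic cells, was at 6.05 in MDP, 6.54 in CDP, 6.05 in cMoP, 5.91 in classical monocytes and 6.05 in nonclassical monocytes. The values of MDP, cMoP and nonclassical monocytes are tied. CDP was thus the 1 array on which Mycl reached the floor, and it exceeded MDP there by 0.49 log2 units, which is within the threshold. On the nonclassical monocyte array, where Myc was lowest, both were under the floor.

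Max, the partner that all of these proteins need, was bright and nearly flat. Its log2 signal was 11.22 in MDP, 11.10 in CDP, cMoP and classical monocytes, which are tied, and 10.95 in nonclassical monocytes. The range of 0.27 log2 units was exceeded by 13636 of the 19938 named genes, and the difference of -0.15 between nonclassical and classical monocytes became 0.07 under quantile normalization. Between the same arrays Myc had its difference of -3.05.

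Among the partners of MAX that repress transcription, none had a difference past the threshold at either monocyte step. Mxd1 was at 7.21 in MDP and CDP, which are tied, 7.21 in cMoP, 7.52 in classical monocytes and 7.37 in nonclassical monocytes. Both monocyte arrays lay above all 3 progenitor arrays, but by a gap of 0.16 log2 units, and the difference between classical monocytes and cMoP was 0.31. Mxd4 was at 8.09 in MDP, CDP, cMoP and nonclassical monocytes and at 8.14 in classical monocytes, a range of 0.05 that 92.9% of named genes exceeded. Its values in CDP, cMoP and nonclassical monocytes are tied. Over the scalings, its difference of -0.05 between nonclassical and classical monocytes ran from -0.14 to 0.13. Mnt, the repressor that is made in most cells, was at 7.85 in MDP, 7.86 in CDP and 7.65 in cMoP. It was at 7.85 in classical monocytes, tied with MDP, and at 8.08 in nonclassical monocytes. Its highest value was in nonclassical monocytes, which exceeded classical monocytes by 0.24.

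Mxi1 was the repressor with the widest range, and its values spread over 1.18 log2 units. Its signal was 7.38 in MDP, 7.23 in CDP, 7.91 in cMoP, 7.91 in classical monocytes, tied with cMoP, and 8.40 in nonclassical monocytes. Nonclassical monocytes exceeded MDP by 1.03 and CDP by 1.18 log2 units, or 2.04-fold and 2.26-fold. Within the 5 comparisons its differences stayed under the threshold, the largest being 0.68 for cMoP against CDP. Mxi1 was thus highest on the array with the least Myc, but not lowest on the array with the most, since CDP was lower than MDP.

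Mxd3, the family member linked to dividing cells, followed another order. Its signal was 7.10 in MDP, 7.97 in CDP, 6.85 in cMoP, 7.61 in classical monocytes and 6.87 in nonclassical monocytes. CDP and classical monocytes were high, and cMoP and nonclassical monocytes were low. In cMoP it was 2.17-fold lower than in CDP (difference -1.12). It was the 1 of 9 members counted as lower in that comparison, against 2.2% of 10441 named genes, and 0 were counted as higher, against 3.23%. CDP exceeded MDP by 0.88 and classical monocytes exceeded cMoP by 0.75, both within the threshold.

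Mlx, the separate partner, was at 7.79 in MDP, 7.58 in CDP, 8.32 in cMoP, 8.27 in classical monocytes and 8.01 in nonclassical monocytes. The largest difference was 0.74 for cMoP against CDP, within the threshold. Of the further proteins that pair with MAX or MLX, Mga, a large repressor, was between 8.25 and 9.05, with its highest value in MDP. Mlxip ran from 8.68 in cMoP to 9.16 in MDP, and Mlxipl was under the floor on every array. None of the 3 passed the threshold in any of the 5 comparisons.

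**Figure D2:**
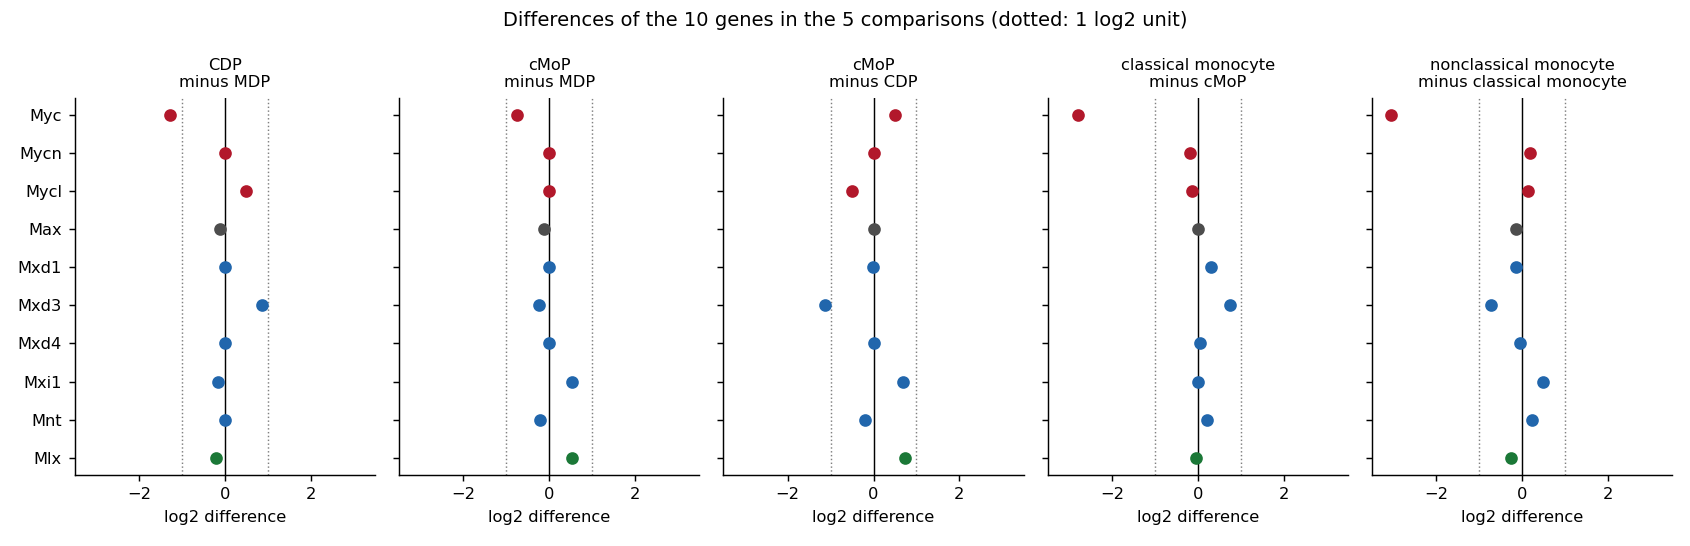
Log2 difference (horizontal axis) of each of the 10 genes (rows) in the 5 comparisons (panels), 1 point per gene, with dotted lines at 1 log2 unit either side of 0. Points beyond the lines are Myc in CDP against MDP (-1.27), in classical monocytes against cMoP (-2.80) and in nonclassical against classical monocytes (-3.05), and Mxd3 in cMoP against CDP (-1.12).

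Over all 50 member differences (10 genes in 5 comparisons), another scaling of the arrays turned the sign of 5, none of them larger than 0.15 log2 units. The mean of probe sets could not move any, since each member has 1 probe set. Of the differences past the threshold, all 4 stayed past it under centring of each array on its median and under quantile normalization. For Myc in classical monocytes against cMoP the value then ranged from -2.85 to -2.80, and for Mxd3 in cMoP against CDP from -1.12 to -1.01.

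Genes that MYC is widely listed as activating were set beside these values in 4 lists, which cover the nucleolus and ribosome assembly, metabolism and transport, translation with chaperones and mitochondria, and the cell cycle. Of their genes 74 were measured. The lists were described by counts and medians, with the same over all named genes, and no list was tested. In CDP against MDP, 4 of 73 target genes past the floor were lower and 1 was higher, where 1.06% and 1.15% of all named genes were, and their median difference was -0.50, against -0.01 for all named genes. Those lower were Wdr12 (-1.27), Gnl3 and Dkc1 (both -1.11), which serve ribosome assembly, and Srm (-1.09), which encodes spermidine synthase. The higher one was Id2 (1.72), an inhibitor of other helix-loop-helix factors. By list, the medians were -0.72 for the nucleolus, -0.61 for metabolism, -0.48 for translation and -0.05 for the cell cycle. In cMoP against MDP, 0 of 73 were past the threshold in either direction, and the median was 0.07, against 0.00 for all named genes.

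In cMoP against CDP, 10 of 73 target genes were higher and 1 was lower, where 3.23% and 2.2% of all named genes were, with a median of 0.52, against 0.02 for all named genes. The higher genes were Shmt2 (1.38), an enzyme of mitochondrial serine use, Srm (1.35), Mthfd1 (1.14) and Cad (1.04), which act in folate use and pyrimidine synthesis, the nucleolar Nop16 and Wdr12 (both 1.18), Nolc1 (1.09) and Gnl3 (1.03), and Eif5a (1.14), a translation factor, with Timm9 (1.03). The lower one was Id2 (at least 3.34-fold, its cMoP value being under the floor). After quantile normalization the nucleolar list had 2 higher genes instead of 4, and the translation list 1 instead of 2. The number of genes past the threshold in this comparison thus depends on the scaling, as does the median of all named genes, which was 0.13 after centring.

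In classical monocytes against cMoP, 37 of 72 target genes were lower and 2 were higher, where 4.4% and 7.01% of all named genes were, with a median of -1.02, against -0.01 for all named genes. The nucleolar list had 15 of 24 lower and 0 higher (median -1.30). Gnl3, which encodes nucleostemin, had log2 signals of 7.69 in classical monocytes and 10.16 in cMoP, and Wdr12 had 7.41 and 9.64. Dkc1 and Nop58, both of small nucleolar RNA complexes, were lower by differences of -1.82 each. Metabolism and transport genes had 13 of 20 lower and 0 higher (median -1.39). They were led by Srm (-2.68), the transferrin receptor Tfrc (-2.37) and the amino acid transporter Slc7a5 (-2.14), followed by Ppat (-1.79), the first enzyme of purine synthesis. Translation genes had 6 of 15 lower (median -0.82), with C1qbp (-1.49) and the chaperonin subunit Cct3 (-1.46) first. Cell cycle targets had 3 of 13 lower and 2 higher (median -0.47). Cyclin D2, encoded by Ccnd2, was 9.82-fold lower (-3.30). Cdca7 and Cdk4, which encodes the kinase partner of cyclin D, differed by -1.63 and -1.26, while Id2 was at least 10.8-fold higher (4.10) and E2f2 was 3.02-fold higher.

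In nonclassical against classical monocytes, 24 of 71 target genes were lower and 0 were higher, where 9.82% and 3.55% of all named genes were, with a median of -0.74, against -0.09 for all named genes. The nucleolar list had 5 of 24 lower, among them Pa2g4 (-1.98) the rRNA methyltransferase Fbl (-1.40), Nop58 (-1.34) and Wdr12 (at least 2.20-fold), but 3 with the floor at the upper quartile. Metabolism genes had 6 of 19 lower, or 5 with values under the floor taken at the floor, with Shmt2 at least 5.49-fold lower and Mthfd1 at least 2.15-fold lower, followed by Slc7a5 (-1.43) and the nucleoside diphosphate kinase Nme1 (-1.39). Translation genes had 4 of 15 lower, namely C1qbp (-1.57), Hspd1 (-1.12), Apex1 (-1.07) and the cap-binding factor Eif4e (-1.03), but 1 after quantile normalization. Cell cycle targets had 9 of 13 lower and a median of -1.49, with Cdca7 (at least 5.38-fold lower), the nuclear transport GTPase Ran (-1.98) and the replicative helicase subunits Mcm5 (-1.97) and Mcm7 (-1.57) among them.

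**Figure D3:**
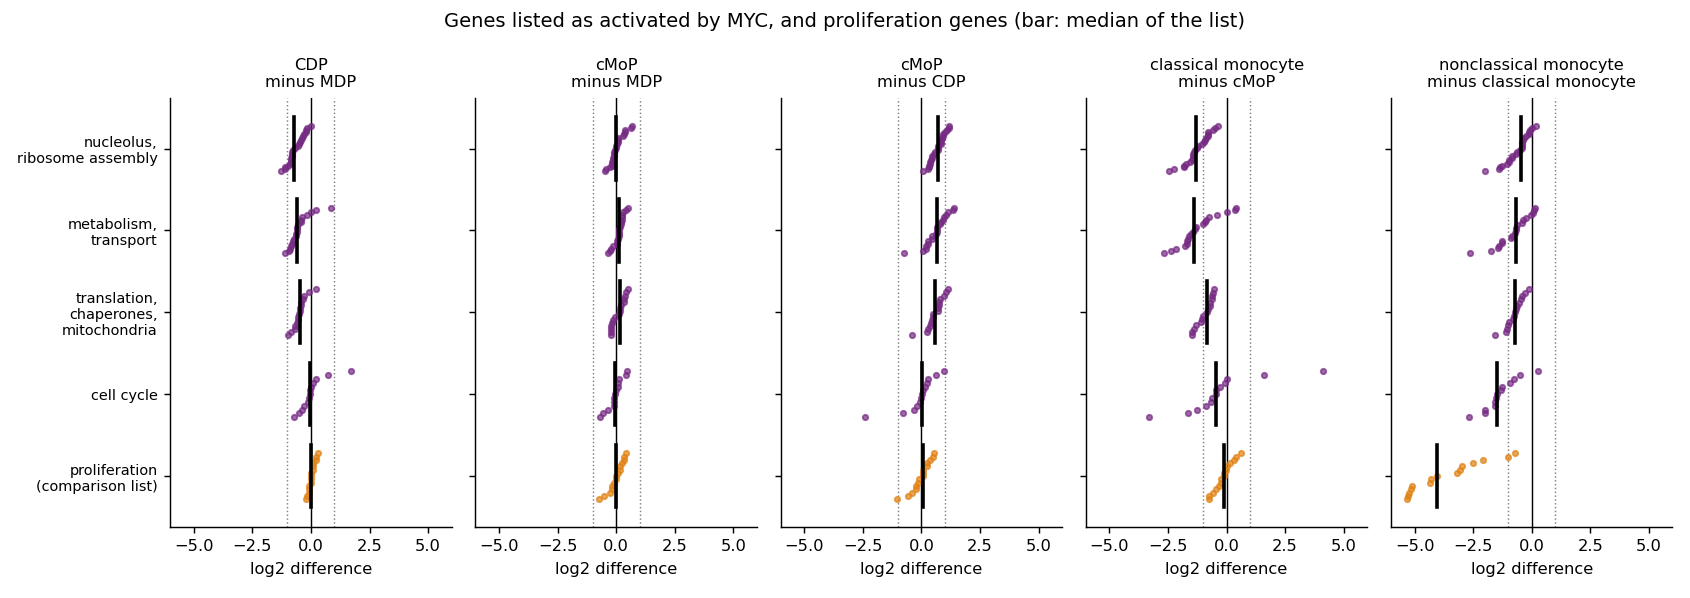
Log2 difference (horizontal axis) of genes listed as activated by MYC (4 upper rows) and of proliferation genes (lowest row) in the 5 comparisons (panels), 1 point per gene past the floor, with black bars at list medians and dotted lines at 1 log2 unit. In classical monocytes against cMoP the nucleolar median is -1.30 and the proliferation median -0.13, and in nonclassical against classical monocytes they are -0.46 and -4.04, the last with 8 of 15 nonclassical values under the floor (-3.36 with those taken at the floor).

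The 15 proliferation genes listed stayed within the threshold at the step from cMoP to classical monocytes. Of these, 0 were higher and 0 lower in classical monocytes than in cMoP, where 7.01% and 4.4% of all named genes were. For a list of 15 genes, 0 is near those shares. Their median difference was -0.13. Mki67, the proliferation antigen, was at 11.37 in MDP, 11.67 in CDP, 10.64 in cMoP, 11.26 in classical monocytes and 6.93 in nonclassical monocytes. It was also the 1 of the 15 past the threshold among the progenitors, 2.05-fold lower in cMoP than in CDP, against 2.2% of all named genes. In nonclassical against classical monocytes 13 of the 15 were lower, where 9.82% of all named genes were. However, 8 of the 15 were under the floor in nonclassical monocytes, where their differences hold only as bounds. All 15 reached it on each of the other 4 arrays. With values under the floor taken at the floor the median was -3.36, and it was -4.04 as deposited. Mki67 was 20.1-fold lower, measured on both arrays. Top2a, Ccna2, Ccnb2, Birc5 and Bub1, all genes of cell division, were lower by at least 32.2-fold, 31.0-fold, 28.3-fold, 20.4-fold and 10.3-fold. On the classical monocyte array Myc and most nucleolar and metabolic targets were thus lower than in cMoP by 1 log2 unit or more, while none of these 15 proliferation genes was. That contrast holds for this list alone, since Ccnd2, Cdca7 and Cdk4 among the cell cycle targets were lower at the same step. Within the 15, Mcm2 (-0.74) and Mcm3 (-0.77) were under the threshold.

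**Figure D4:**
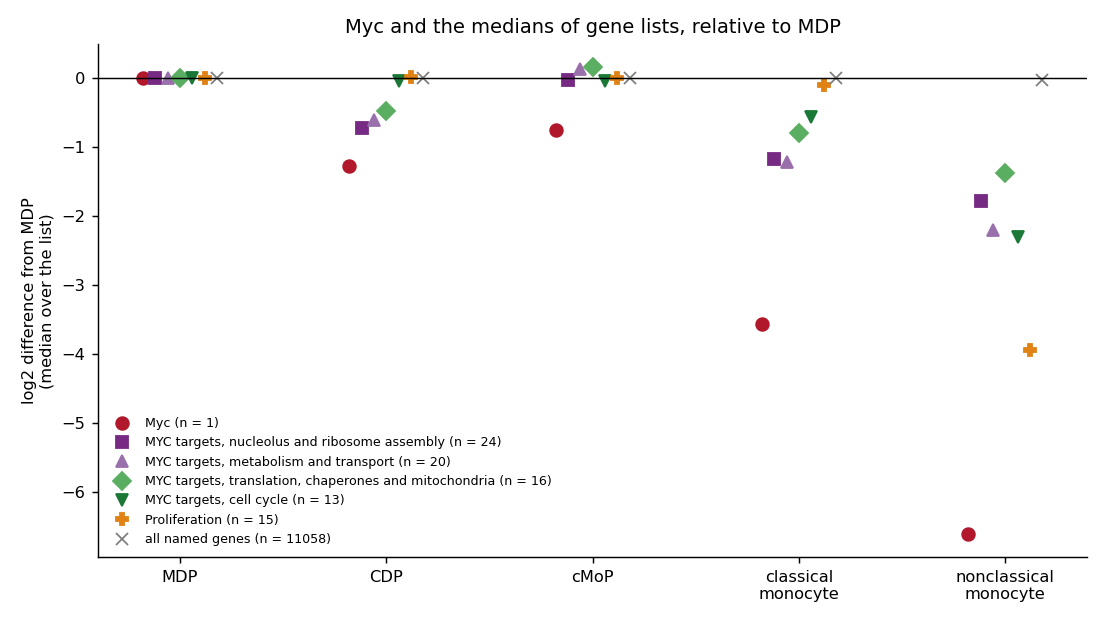
Log2 difference from MDP (vertical axis) of Myc and of the median gene of each list on the 5 arrays (horizontal axis), with symbols side by side within an array for legibility, for genes that reached the floor on any array. In classical monocytes Myc stands at -3.56, the nucleolar list at -1.17 and the proliferation list at -0.10, and in nonclassical monocytes at -6.60, -1.78 and -3.94. With values under the floor taken at the floor these last 3 are -5.95, -1.78 and -3.61.

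Some genes listed as markers of other cells moved in the same comparisons. Whether their signal came from such cells or from the sorted cells themselves was not tested. Among the progenitors the neutrophil gene Cxcr2 was at least 2.43-fold lower in CDP than in MDP, and it was past the threshold, higher, in cMoP against CDP with a bound of 1.53-fold. S100a9 was 3.30-fold higher in cMoP than in MDP. Of 8 neutrophil genes, Mmp8 (4.26) and S100a9 (3.66) were higher in classical monocytes than in cMoP. Ngp and Cxcr2 also passed the threshold, but each had its lower value under the floor, and their bounds of 1.28-fold higher and 1.53-fold lower are less than 2-fold. In nonclassical against classical monocytes Mmp8 was at least 32.3-fold lower and S100a9 14.8-fold lower (-3.89). The summed log2 signal of the list was 56.5 in classical monocytes, while the remaining arrays had 45.2 to 47.9. Camp was under the floor in MDP and between 6.29 and 6.89 on the other arrays, highest in classical monocytes. Ly6g, Ltf and Retnlg were under the floor on all 5 arrays. Of 8 macrophage genes, Adgre1 was higher in classical monocytes than in cMoP (2.29) and higher again in nonclassical than in classical monocytes, by 3.03-fold. Siglec1 passed the threshold at the first step, with a bound of 1.43-fold. Of the others, C1qa, C1qb, C1qc, Vcam1, Mrc1 and Timd4 were under the floor on every array. The summed log2 signal of these 8 was 49.3 in classical and 50.3 in nonclassical monocytes, against 44.0 to 46.0 on the progenitor arrays. Such sums add log2 values and include genes under the floor. Adgre1 alone was at 9.65 in classical and 11.25 in nonclassical monocytes, against 6.43 to 7.36 on the progenitor arrays. In classical monocytes the basophil protease gene Mcpt8 (-1.99) and the B cell receptor gene Cd79b (-1.09) were lower than in cMoP. The basophil gene Prss34 (1.34) was higher in nonclassical than in classical monocytes. The part of such cells in the values of Myc and its targets was not tested.

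Genes that MYC is listed as lowering passed the threshold in both directions. In cMoP against CDP 1 of 8 was higher, the stress response gene Gadd45b (1.44, 2.72-fold), and 0 were lower, where 3.23% and 2.2% of all named genes were. In classical monocytes against cMoP 3 of 9 were higher, where 7.01% of all named genes were, namely Thbs1, which encodes thrombospondin 1 (at least 3.63-fold, 2.55), Ndrg1 (1.85) and the cell cycle inhibitor Cdkn1b (1.03), and 1 was lower, against 4.4%, Pdgfrb (-1.04), whose classical monocyte value is under the floor and whose bound is 1.20-fold. In nonclassical against classical monocytes 3 of 8 were lower, against 9.82%, namely Ndrg1 (-3.18), the inhibitor Cdkn2c (-2.72) and Thbs1 (at least 3.63-fold), and 1 was higher, against 3.55%, Pdgfrb (1.04, again a bound of 1.20-fold). The last of these calls ended under centring, under quantile normalization and with the floor at the upper quartile. Cdkn1b, which encodes p27, was at 9.94 in MDP, 10.56 in CDP, 9.65 in cMoP, 10.68 in classical monocytes and 11.39 in nonclassical monocytes.

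Targets of MLX pairs were higher in classical monocytes than in cMoP in 3 of 6 cases and lower in 0, where 7.01% and 4.4% of all named genes were. In nonclassical against classical monocytes 1 of 6 was higher and 2 were lower, where 3.55% and 9.82% were. In classical monocytes against cMoP, Txnip, the glucose-responsive inhibitor of thioredoxin, was 3.99-fold higher. The related arrestin-domain genes Arrdc4 and Arrdc3 were higher there by 1.63 and 1.22. The Arrdc4 values of CDP, cMoP and nonclassical monocytes are tied at 6.89. Txnip had 10.83 in classical and 11.10 in nonclassical monocytes, against 8.98, 9.35 and 8.83 in MDP, CDP and cMoP. Arrdc3 also lay higher on both monocyte arrays than on every progenitor array, by a gap of 1.09. Arrdc4, in contrast, was lower in nonclassical than in classical monocytes (-1.63), as was Fasn, the fatty acid synthase (-1.18), while Arrdc3 was higher (1.39). Mlx itself differed by -0.05 and -0.26 at these steps.

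Cofactors of the network that passed the threshold were all lower. Among 12 chromatin partners of MYC, 2 (16.7%, against 4.4% of named genes) were lower in classical monocytes than in cMoP, the helicase Ruvbl1 (-1.71) and the acetyltransferase Kat2a (-1.05). Another 3 (25%, against 9.82%) were lower in nonclassical than in classical monocytes, namely Smarcb1 (-1.37), Ruvbl2 (-1.14) and Wdr5 (-1.10). Bptf was lower in cMoP than in MDP (-1.02, 1 of 12 against 1.4%), a call that ended under centring and with the mean of its probe sets. Of 8 corepressor genes of the MXD proteins and MNT, 1 (12.5%, against 9.82%) passed the threshold, the histone deacetylase Hdac2, 2.83-fold lower in nonclassical than in classical monocytes. Among 14 genes that act on MYC protein stability, 0 passed it in any comparison before that last one, in which 4 of 13 (30.8%, against 9.82%) were lower. These were Plk1 (at least 10.8-fold), Cip2a (at least 6.65-fold), Aurka (-2.43) and Skp2 (-1.08), of which Plk1, Aurka and Skp2 are also genes of the cell cycle.

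Genes with profiles most like those of the 3 members with a range of 1 log2 unit or more were found among 4056 genes of at least that range, by the root mean square difference over the 5 arrays after subtracting each gene's mean. Nearest to Myc were Myb, a transcription factor of blood progenitors (0.28), Adgrl4 (0.46) and Mpo, which encodes myeloperoxidase (0.47). In nonclassical monocytes Myc, Myb and Adgrl4 are under the floor, so these distances rest in part on values with only a bound. With such values taken at the floor, Myb was still nearest (0.27), followed by Cd34 (0.45) and Cst7 (0.54), with Mpo in place 4 and Adgrl4 in place 16 of 3713 genes, while the genes nearest to Mxd3 and Mxi1 were the same. Myb had log2 signals of 11.45 in MDP, 10.80 in CDP, 11.11 in cMoP, 8.54 in classical monocytes and 5.68 in nonclassical monocytes, in the same order as Myc. Nearest to Mxd3 were Tmem268 (0.11), Mfhas1 (0.14) and Castor2 (0.15), and nearest to Mxi1 were Stard5 (0.08), Cat, which encodes catalase (0.11), and Tor4a (0.11).

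Some of the target genes that were lower in monocytes hold the E-box in their promoters. Over the 4 lists, 18 of the 65 genes with a promoter in the table (27.7%) held CACGTG, against the 11.9% of named genes with signal given above. This share covers all listed genes, lower in monocytes or not. MYC binds at E-boxes, so lists of its targets can hold the motif more often whatever these arrays show. By list the share was 20% for the nucleolus, 23.5% for metabolism, 50% for translation (8 of 16) and 16.7% for the cell cycle. It was 28.6% (2 of 7) for the genes listed as lowered by MYC and 7.69% (1 of 13) for the proliferation genes. Of the 18 target genes with the motif, some were within the threshold at both monocyte steps. Among them were Ldha (-0.87 in classical monocytes against cMoP and 0.10 in nonclassical against classical monocytes) and Pes1 (-0.78 and -0.41). Whether the motif went with a lower signal was not tested. Windows of 4 of the 18 are shown as examples because each was lower at a monocyte step, with coordinates in GRCm38.p6. They lie at chr14:50924913-50924942 on the plus strand for Apex1, chr12:71136716-71136745 on the minus strand for Timm9, chr1:55088306-55088335 on the minus strand for Hspd1 and chr5:129020026-129020055 on the plus strand for Ran. The capitals mark the first such motif in each promoter.
Apex1: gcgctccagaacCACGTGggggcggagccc
Timm9: cctacattttccCACGTGgtaacgaatctg
Hspd1: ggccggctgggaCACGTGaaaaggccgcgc
Ran: gctcggccggccCACGTGacccgccgcccc
Apex1, a DNA repair nuclease, and Timm9, a chaperone of mitochondrial import, were lower in classical monocytes than in cMoP by differences of -1.31 and -1.39. Hspd1, a mitochondrial chaperonin, and Ran were lower in nonclassical than in classical monocytes by differences of -1.12 and -1.98.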

How the data were processed

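The deposited values are 1 table of log2 signals with 35556 probe sets and 5 arrays, running from 1.59 to 14.24. The base was read from that range. The sources used here do not say how the authors corrected, normalized and summarized the deposited log2 values. Groups were taken from the sample titles. Genes were named from the platform's annotation where a probe set carries 1 symbol (21789 probe sets, 19938 genes), with the probe set of highest mean where there were several. All 10 members' symbols matched RefSeq (GRCm38.p6) through their Entrez identifiers.

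Differences, counts and medians were computed with Python 3.11.15, numpy 2.4.6 and pandas 2.3.3, using a threshold of 1 log2 unit and a floor of 6.27. The calling step was run on simulated data without noise, with shifts larger than the threshold. That checks the code and does not measure how often single arrays give false calls. Every member is named. From each of 19 lists (194 of 217 genes measured), up to 4 genes past the threshold per comparison with the largest differences are named, further genes only to give the values of a result. The members and lists were chosen with earlier results of these data known. Alternatives were centring, quantile normalization, averaging over the probe sets of a gene, an upper-quartile floor, no floor and, added after seeing the data, values under the floor raised to it. Sequences come from RefSeq promoters.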

Additional observations from a re-analysis of the deposited data

How the results depend on the processing

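The 12 counts of members past the threshold, each under the 5 alternatives, were unchanged in all 60 cases, and the members each have 1 probe set, so the mean of probe sets could not move them. Raising each value under the floor to it, an alternative chosen after seeing the data, left the 12 counts unchanged. It moved 1 of 55 list medians, that of the proliferation genes in nonclassical against classical monocytes (-3.36 in place of -4.04), and 2 of 110 list counts, both of which lost Pdgfrb. The largest shift of a member's difference was 0.21 log2 units under quantile normalization, for Max in nonclassical against classical monocytes, which moved to 0.07. Under the other 5 settings, of 275 list medians 14 moved by 0.2 log2 units or more or crossed the threshold. One was of a target list, the cell cycle targets in nonclassical against classical monocytes, which had -1.29 after quantile normalization. The other 13 belonged to the lists of MLX targets, of MYC-lowered genes, of further partners and of proliferation genes, and the last list had a median of -3.17 in nonclassical against classical monocytes with the mean of probe sets. Of 550 list counts 18 moved, by more than 1.5 times or to or from 0, and the cause was not tested. Centring put the median of all named genes at 0.11 for cMoP against MDP and gave 196 genes higher and 106 lower, where 147 and 143 were reported. For cMoP against CDP it gave 468 and 182, where 337 and 230 were reported. With the floor at the upper quartile the genes counted as lower numbered 61 in place of 110 for CDP against MDP, 73 in place of 143 for cMoP against MDP and 149 in place of 230 for cMoP against CDP. No paired analysis was possible because each population has 1 array. Dim signal limits Mycn, Mycl and Myc in nonclassical monocytes. The ties, whose origin is not known, may hide small differences.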

Other observations

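The order of the 5 arrays by Myc signal, from MDP through cMoP, CDP and classical monocytes to nonclassical monocytes, was looked for in other genes after the values had been seen. Of the 73 genes listed as activated by MYC that reached the floor on any array, 24 (32.9%) had that order without ties, where 531 of 11058 named genes (4.8%) did. By list it was 12 of 24 for the nucleolus and ribosome assembly, 6 of 16 for translation, chaperones and mitochondria, 3 of 20 for metabolism and transport and 3 of 13 for the cell cycle. Among the proliferation genes 1 of 15 had it, among the genes listed as lowered by MYC 0 of 9, and among the other members past the floor 0 of 8. Over the 6 alternatives the 24 ranged from 16, after centring, to 24, and the 531 from 413 to 548. The genes of a list are not independent of each other, and the count is a description of these 5 arrays.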
